A study of Homo sapiens with 24 samples.

Results

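The 10 genes described here are *ATF4*, the transcription factor at the centre of the integrated stress response (ISR), and 9 genes known to respond to it: *DDIT3*, *ATF3*, *ASNS*, *PSAT1*, *PHGDH*, *CHAC1*, *TRIB3*, *SESN2* and *DDIT4*. They were chosen by name, with earlier results of these data known, and each matched 1 row of a table of raw read counts that held 61551 usable genes, of which 45842 had a count in any library. All 10 passed the filter on low counts in all 19 comparisons made. RNA was sequenced from H9 human embryonic stem cells (hESCs), an established cell line, of 4 genotypes. These were hHAR123 (unedited, with the human sequence of HAR123, a human accelerated region that lies in an intron of *SMG6*), HAR123-KO (HAR123 deleted), cHAR123 (HAR123 replaced by its chimpanzee ortholog) and mHAR123 (HAR123 replaced by its mouse ortholog). Each genotype was sampled as hESCs kept in StemFlex medium (ESC, day 0) and as neuroectoderm (ECTO, day 5) after culture in a serum replacement medium with Noggin at 500 ng/ml and SB431542 at 10 μM, inhibitors of BMP and of activin/TGF-β signalling, with 3 libraries per genotype and stage. ESC and ECTO therefore differ in medium, added inhibitors and days in culture as well as in cell identity, and these cannot be told apart.

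The ISR is a conserved response to amino acid shortage, unfolded protein, heme shortage and viral RNA. Each of these activates a kinase that phosphorylates the initiation factor eIF2α, which lowers protein synthesis in general while translation of the *ATF4* mRNA increases. ATF4 protein then pairs with other basic leucine zipper (bZIP) factors and turns on genes for amino acid synthesis and uptake, tRNA charging, redox balance and, under lasting stress, cell death. Because the increase in ATF4 occurs mainly in translation, the amount of its mRNA does not measure its activity. The pathway also meets RNA decay: *SMG6* encodes the endonuclease of nonsense-mediated RNA decay (NMD), phosphorylated eIF2α inhibits NMD, and the mRNAs of *ATF4* and of several of its targets are known NMD substrates.

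ATF4 and its C/EBP partners bind a composite sequence, the C/EBP-ATF response element, whose core was searched as TGATGNAA on both strands in the 300 bases around each start site (250 before and 50 after) in the RefSeq promoters of GRCh38.p14. Of the 10 genes, 3 held it (*ATF3*, *ASNS* and *CHAC1*; 3 of 16 promoters), against 1217 of 27305 genes (4.46%) among all genes with a promoter in the table. The matches are shown here because genes that hold them did not move together: *ASNS* and *CHAC1* fell and *ATF3* rose between the stages below. Sequences are given 5′ to 3′ on the strand of the gene, and capitals mark the match, on either strand.
ATF3 (chr1:212565205-212565234, + strand): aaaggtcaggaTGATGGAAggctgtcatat
ASNS (chr7:97872458-97872487, - strand): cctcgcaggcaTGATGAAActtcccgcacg
CHAC1 (chr15:40953251-40953280, + strand): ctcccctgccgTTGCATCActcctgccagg

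These matches began 191, 68 and 209 bases before the RefSeq start whose promoter holds them in *ATF3*, *ASNS* and *CHAC1*. The *ASNS* and *CHAC1* matches lie within the span that the count table gives these genes, which begins at a start further upstream. With only the 250 bases before the start searched, the same 3 genes held a match and 3.89% of all genes did. With the stricter form TGATGCAA, 1 of the 10 genes (*CHAC1*) and 1.08% of all genes held it. Among genes of tRNA charging known to be under ATF4 (aminoacyl-tRNA synthetases, which load tRNAs with amino acids, and the tRNA exporter *XPOT*), 7 of 11 with a promoter in the table (63.6%) held TGATGNAA, and 0 of 6 other tRNA synthetases did. With only the 250 bases before the start searched, 3 of the 11 (27.3%) held it whole. The stricter TGATGCAA was held by 6 of the 11 in the 300 bases and by 2 in the 250 bases. The 4 shown next carry the form TGATGCAA, read on the other strand, and *TARS1* and *MARS1* recur below. The *MARS1* match began 4 bases before the RefSeq start and runs across it, and the *TARS1* match began past the start. The 10 genes and both lists of tRNA genes were set from prior knowledge of ATF4 targets, which may rest in part on such elements. The contrast of the 10 genes with all genes, and that between the lists, is therefore no test. A match is a description of letters in these windows, and binding was not measured.
AARS1 (chr16:70289675-70289704, - strand): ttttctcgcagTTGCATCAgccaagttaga
IARS1 (chr9:92293692-92293721, - strand): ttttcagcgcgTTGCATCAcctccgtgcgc
MARS1 (chr12:57488053-57488082, + strand): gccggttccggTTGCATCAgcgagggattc
TARS1 (chr5:33440956-33440985, + strand): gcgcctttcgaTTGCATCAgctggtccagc

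The ESC libraries held between 23334732 and 35198684 counts and the ECTO libraries between 21022748 and 25978892. The summed level of 8 pluripotency markers lay between 5377 and 5776 counts per 1000000 (CPM) in the ESC libraries and between 1428 and 1598 CPM in the ECTO libraries, and that of 8 neuroectoderm markers (*PAX6*, *SOX1* and others) was 2522 to 2573 CPM in hHAR123 ECTO. HAR123-KO ECTO stood apart: its neuroectoderm markers summed to 1186 to 1218 CPM, and 8 neural crest markers (*FOXD3*, *SOX10* and others) to 1464 to 1486 CPM, against 105 to 110.0 CPM in hHAR123, 249 to 260.1 CPM in cHAR123 and 284 to 287 CPM in mHAR123 at ECTO. None of these neural crest markers was at 0 in any ECTO group. The study used 2 clones per genotype, so the 3 libraries of a group cannot all come from different clones. Which clone gave which library is not stated in the sources used here. The labels do not say whether the 3 libraries came from separate cultures, so p-values measure the spread between these libraries only. Clones differ between genotypes, so an effect of genotype and an effect of clone cannot be told apart. At ECTO, the study's own summary of base levels for cHAR123 matches the columns labelled mHAR123 and the reverse, so each library is called here by the label of its column and which of both ECTO columns is right was not tested.

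Levels are given as CPM scaled by TMM over the 24 libraries and, where genes are compared with each other, as RPKM, the same values per kilobase of exon. Differences are log2 fold changes ± SE from edgeR's quasi-likelihood test on the libraries of the groups compared, with Benjamini-Hochberg adjusted p over all genes tested, and a gene was called at an adjusted p under 0.01. In RPKM, *ATF4* was the most abundant of the 10 transcripts in hHAR123 ESC (147 ± 1.68, SD, n = 3), followed by *PSAT1* (115 ± 1.23) and *PHGDH* (50.3 ± 0.382). *ASNS* (1.06) and *DDIT3* (1.3) were the least abundant. In hHAR123 ECTO the order changed, with *DDIT4* first (181 ± 3.96 RPKM), then *ATF4* (51.0 ± 0.885) and *PSAT1* (38.3 ± 1.07), and with *TRIB3* (0.721) and *ASNS* (0.526) last. The plot of levels by library shows each of the 24 values per gene.

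**Figure D1:**
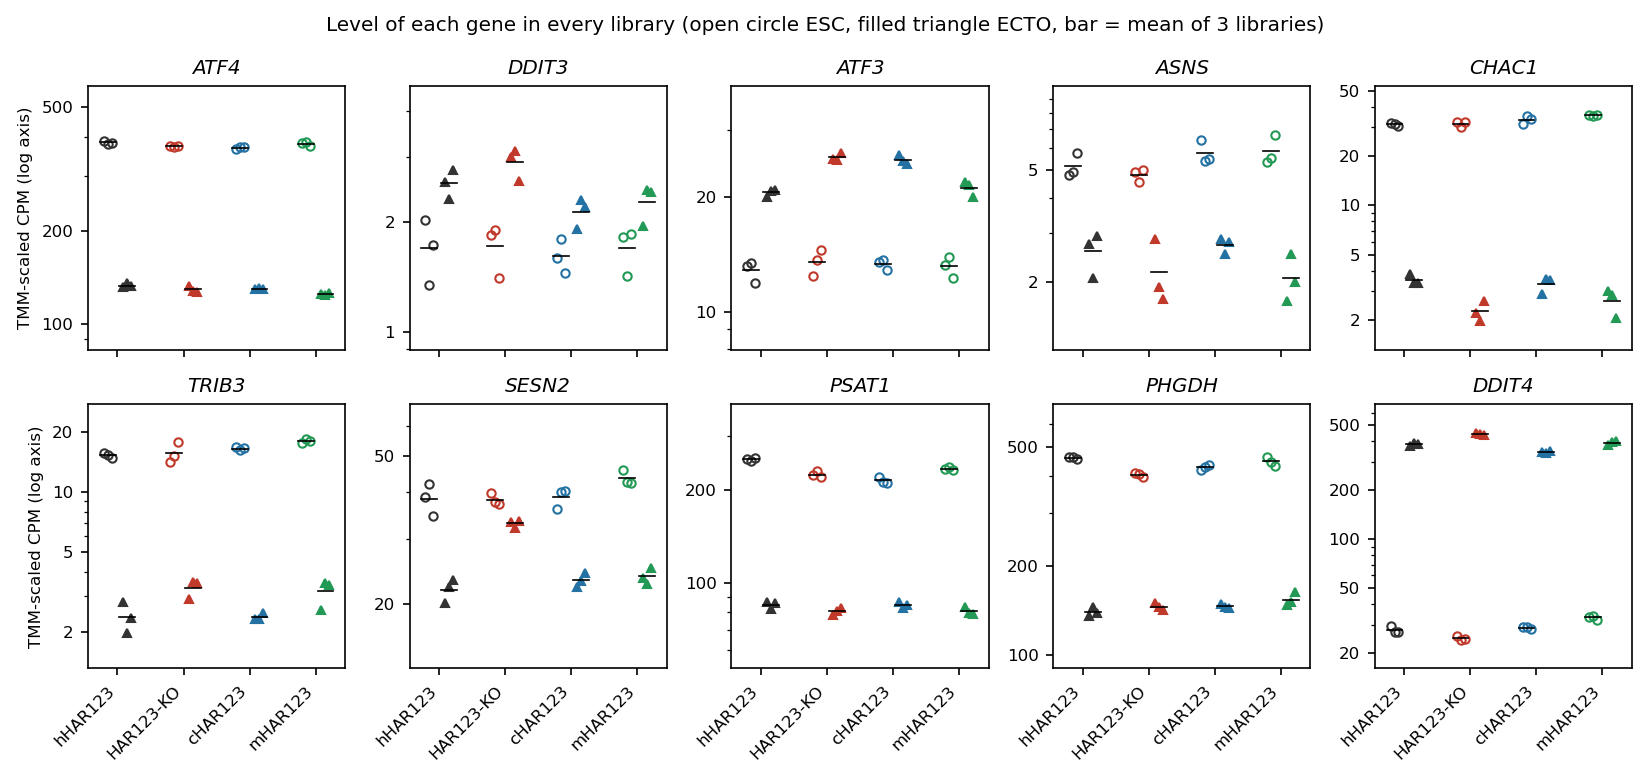
Level of each of the 10 genes in every library, as TMM-scaled CPM on a log axis (each panel has its own range), by genotype; open circles are the 3 ESC libraries, filled triangles the 3 ECTO libraries and bars their means. Within each genotype the stages do not overlap for any of the 10 genes. This sets no gene apart, as 78.6% to 80.1% of all genes were called between the stages. The share of all genes without overlap was not computed. *DDIT4* rises from between 24.2 and 34 CPM to between 339 and 449 CPM, while *SESN2* in HAR123-KO ECTO (32 to 33.5 CPM) lies close to its ESC level.

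The stages were compared first, in hHAR123, to see how these genes behave as hESCs become neuroectoderm. All 10 were called, 7 lower and 3 higher in ECTO, with a median log2 fold change of -1.27 against 0.05 over all 22280 genes tested. Most genes changed between these stages (80.1% of genes called, 40.3% higher and 39.7% lower), so being called sets no gene apart, and 7 of the 10 passed an absolute log2 fold change of 1 as well, against 45.9% of all genes. In bulk RNA, fewer cells of a type and less RNA per cell cannot be told apart. Scaling by library totals in place of TMM moved the median of all genes in this comparison from 0.05 to 0.34 and the share of calls that were higher from 50.4% to 61.5%, and the values below are relative to the TMM scale.

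Each gene is given with its identifier and its GRCh38 position from the count table. Among the transcription factors, *ATF4* (ENSG00000128272, chr22:39519695-39522683, + strand) was measured at 388, 379.7 and 384 CPM in the 3 hHAR123 ESC libraries and at 132, 136 and 132 CPM in the 3 ECTO libraries. The groups lay far apart, and the spread within each was a few percent. *ATF4* fell by 1.52 ± 0.032 on the log2 scale (2.88-fold lower, adjusted p = 9.56e-34). *DDIT3* (ENSG00000175197, chr12:57516588-57521737, - strand), which encodes CHOP, a bZIP factor of prolonged stress, was scarce at both stages, with 2.02, 1.34 and 1.73 CPM in ESC and 2.57, 2.3 and 2.76 CPM in ECTO. Every ECTO library was above every ESC library, but on 38 to 81 counts per library over all genotypes and stages. The change of 0.59 ± 0.185 was called by edgeR (adjusted p = 0.00377) and not by DESeq2 (adjusted p = 0.0815), nor without ESC replicate 2 (0.43, adjusted p = 0.0423) or ECTO replicate 3 (0.51, adjusted p = 0.0246). Exons of other genes cover 39.6% of the exon bases of *DDIT3*, mostly *MARS1* on the opposite strand. Whether strand was used in counting is not given in the sources used here, so the *DDIT3* values are uncertain. Over all genotypes *MARS1* was counted at a mean of 294 CPM in ESC and 94.4 CPM in ECTO (by library totals). It moved opposite to *DDIT3*, and its part in the *DDIT3* change was not tested. *ATF3* (ENSG00000162772, chr1:212565334-212620777, + strand), a stress-induced bZIP repressor, rose from 13.2, 13.4 and 11.9 CPM to 20, 20.8 and 20.9 CPM, with no overlap (0.69 ± 0.07, adjusted p = 1.54e-11).

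The 3 synthesis enzymes fell. *PHGDH* (ENSG00000092621, chr1:119648411-119744218, + strand), the first enzyme of serine synthesis from glycolysis, stood at 464, 464 and 458 CPM in hHAR123 ESC and at 135, 145 and 138 CPM in ECTO. It fell by 1.73 ± 0.032 on the log2 scale (3.31-fold lower, adjusted p = 2.22e-35). *PSAT1* (ENSG00000135069, chr9:78297125-78330093, + strand), the next enzyme of that pathway, stood at 254, 249.7 and 255 CPM in ESC and at 86.1, 81.8 and 85.7 CPM in ECTO. Its decrease was nearly as large, by 1.58 ± 0.035 (2.99-fold, adjusted p = 5.34e-33). *ASNS* (ENSG00000070669, chr7:97851677-97872542, - strand), asparagine synthetase and a classical amino acid response gene, was low in all libraries, at 4.82, 4.95 and 5.79 CPM in ESC and 2.74, 2.07 and 2.92 CPM in ECTO. It fell by 1.01 ± 0.142 (adjusted p = 3.25e-08). Its counts (46 to 184 per library) may leave out reads, because 49.3% of its exon bases are shared on the same strand with ENSG00000284707, which was counted at a mean of 1.58 CPM in ESC and 6.44 CPM in ECTO (by library totals). The rise of that overlapping gene moved opposite to *ASNS*, and its part in the decrease was not tested.

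The feedback and effector genes had the largest changes of the 10 in both directions. *CHAC1* (ENSG00000128965, chr15:40952962-40956512, + strand), a glutathione-degrading enzyme induced by ATF4, was measured at 31.8, 31.6 and 30.7 CPM in hHAR123 ESC and at 3.81, 3.36 and 3.34 CPM in ECTO. It fell by 3.16 ± 0.083 on the log2 scale (8.95-fold, adjusted p = 3.2e-30). *TRIB3* (ENSG00000101255, chr20:362835-397559, + strand), a pseudokinase that restrains ATF4 and CHOP, stood at 15.7, 15.3 and 14.9 CPM in ESC and at 2.82, 1.96 and 2.33 CPM in ECTO. It fell by 2.69 ± 0.11 (6.46-fold, adjusted p = 9.35e-24). *SESN2* (ENSG00000130766, chr1:28259518-28282491, + strand), an inhibitor of mTORC1 that binds leucine, stood at 38.7, 41.9 and 34.5 CPM in ESC and 20.2, 22.3 and 23.2 CPM in ECTO. It fell by 0.80 ± 0.064 (1.75-fold, adjusted p = 1.38e-14). *DDIT4* (ENSG00000168209, chr10:72273919-72276036, + strand), which encodes the mTORC1 inhibitor REDD1 and also responds to hypoxia and glucocorticoids, went the other way, from 29.2, 26.8 and 27 CPM to 373, 389.5 and 385 CPM. Every ECTO library exceeded every ESC library more than 10-fold, and the increase of 3.79 ± 0.04 (13.9-fold, adjusted p = 7.72e-44) was the largest change among the 10 genes.

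The same comparison in the edited lines gave 10 called genes in HAR123-KO, 9 in cHAR123 and 9 in mHAR123, where 79.2%, 78.9% and 78.6% of all genes were called. *DDIT3* (0.79 in HAR123-KO, adjusted p = 6.7e-05, and 0.012 by DESeq2) was the gene not called in cHAR123 (0.42, adjusted p = 0.0403) and in mHAR123 (0.42, adjusted p = 0.034). *ATF4* fell by 1.5 in HAR123-KO, by 1.48 in cHAR123 and by 1.59 in mHAR123. *CHAC1* fell by 3.78, 3.33 and 3.72, and *DDIT4* rose by 4.19, 3.60 and 3.58 in the same order. *SESN2* was the exception in HAR123-KO, where ESC libraries stood at 39.7, 37.5 and 37.1 CPM and ECTO libraries at 33.3, 32.0 and 33.5 CPM. It fell there by 0.18 ± 0.05 (adjusted p = 0.00075), and scaling by library totals turned this to an increase of 0.02 (adjusted p = 0.771). In cHAR123 and mHAR123 it fell by 0.72 and 0.86.

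**Figure D2:**
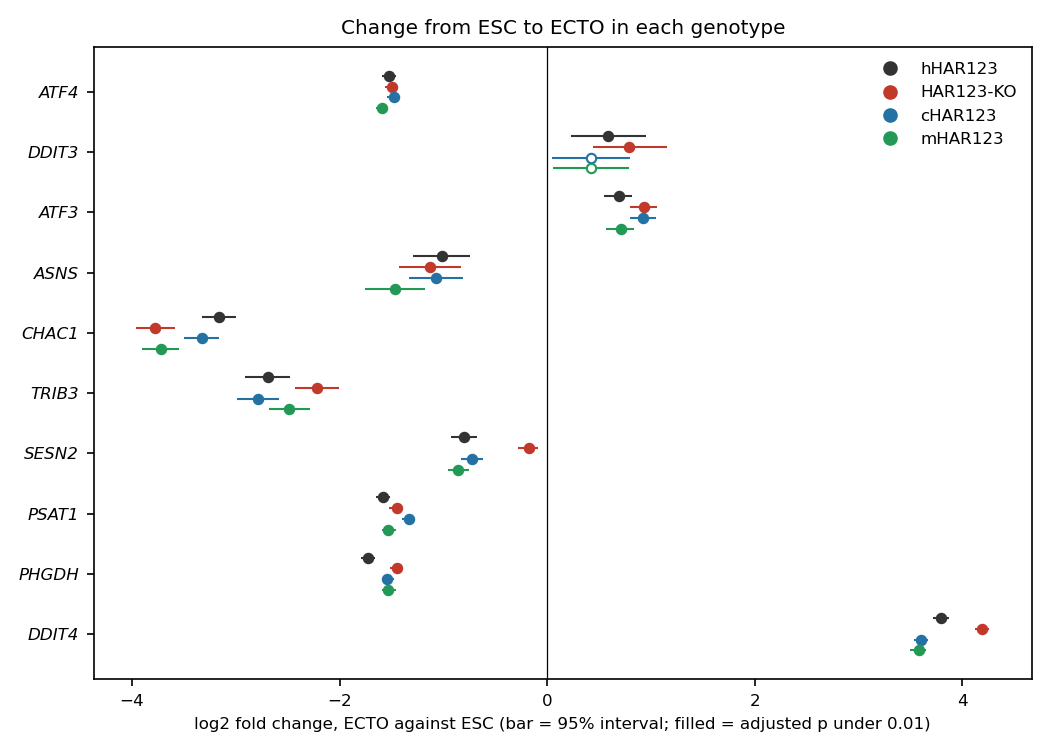
Log2 fold change from ESC to ECTO of each of the 10 genes (rows) in each of the 4 genotypes (colours), with bars for the 95% interval and filled points for an adjusted p under 0.01. The genotypes lie close together for *ATF4* (from -1.59 to -1.48), and HAR123-KO departs most for *SESN2* (-0.18 against values from -0.86 to -0.72).

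Other genes of the pathway, from lists fixed by name, are given for hHAR123 as the number called higher and lower in ECTO of those tested. Over all genes 40.3% were called higher and 39.7% lower. All 10 further enzymes of amino acid and folate metabolism fell (median log2 fold change -1.54, against 0.05 over all genes). *CBS*, the first enzyme of transsulfuration, fell by 3.31 ± 0.037, *MTHFD2* by 2.71 ± 0.04, *PYCR1* by 2.59 ± 0.042, *SHMT2* by 1.87 ± 0.037 and *PSPH*, the last enzyme of serine synthesis, by 1.12 ± 0.058. Of 10 amino acid transporters 9 fell and 1 rose (median -2.07). *SLC7A11*, the cystine importer, fell by 2.09 ± 0.049, and the neutral amino acid carrier *SLC1A4* was the transporter that rose (1.12 ± 0.098). All 13 genes of tRNA charging under ATF4 fell (median -1.41), among them *TARS1* (by 2.98 ± 0.039) and *MARS1* (by 2.0 ± 0.034). The 8 other tRNA synthetases, which serve as a comparison, had 6 lower and 0 higher (median -0.83).

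Upstream of ATF4, 7 of 10 eIF2α kinases, phosphatase subunits and their cofactors fell and 1 rose (median -0.63). *EIF2AK4*, which encodes the amino acid sensor GCN2, fell by 1.65 ± 0.034, and *PPP1R15A*, the stress-induced phosphatase subunit that ends the ISR, was the gene that rose (1.12 ± 0.059). All 5 eIF2B subunits fell (median -0.73). All 7 bZIP partners tested of 8 listed fell (median -1.71), with *CEBPB* lower by 2.96 ± 0.084 on the log2 scale and *CEBPG*, the common dimer partner of ATF4, by only 0.26 ± 0.045. Other stress targets of ATF4 and CHOP went both ways: 8 of 12 tested rose and 4 fell (median 0.43), from *GDF15*, a secreted stress cytokine (0.72 ± 0.201), to *PMAIP1*, a proapoptotic BCL2 family member that also responds to p53, which fell by 5.85 ± 0.085. Targets of ATF6 and XBP1, the other arms of the unfolded protein response, had 12 of 15 lower and 2 higher (median -1.08). Of 12 p53 targets, 6 rose and 5 fell (median 0.26).

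Of 10 transcripts known to be degraded by NMD, 3 rose in hHAR123 ECTO and 6 fell (median -0.21). The protein-coding members *GADD45A* (1.09 ± 0.089), *GADD45B* (1.25 ± 0.118) and *TBL2* (0.18 ± 0.062) rose, and *UPP1* fell by 1.5 ± 0.09. Of the small nucleolar RNA host genes, *SNHG12* fell by 1.36 ± 0.065, *SNHG15* by 1.02 ± 0.065, *SNHG1* by 0.52 ± 0.038, *GAS5* by 0.24 ± 0.033 and *ZFAS1* by 0.18 ± 0.049, and *SNHG5* was at -0.05 (adjusted p = 0.351). The list had no common direction, and library totals turned its median to 0.08 with 4 higher and 4 lower.

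**Figure D3:**
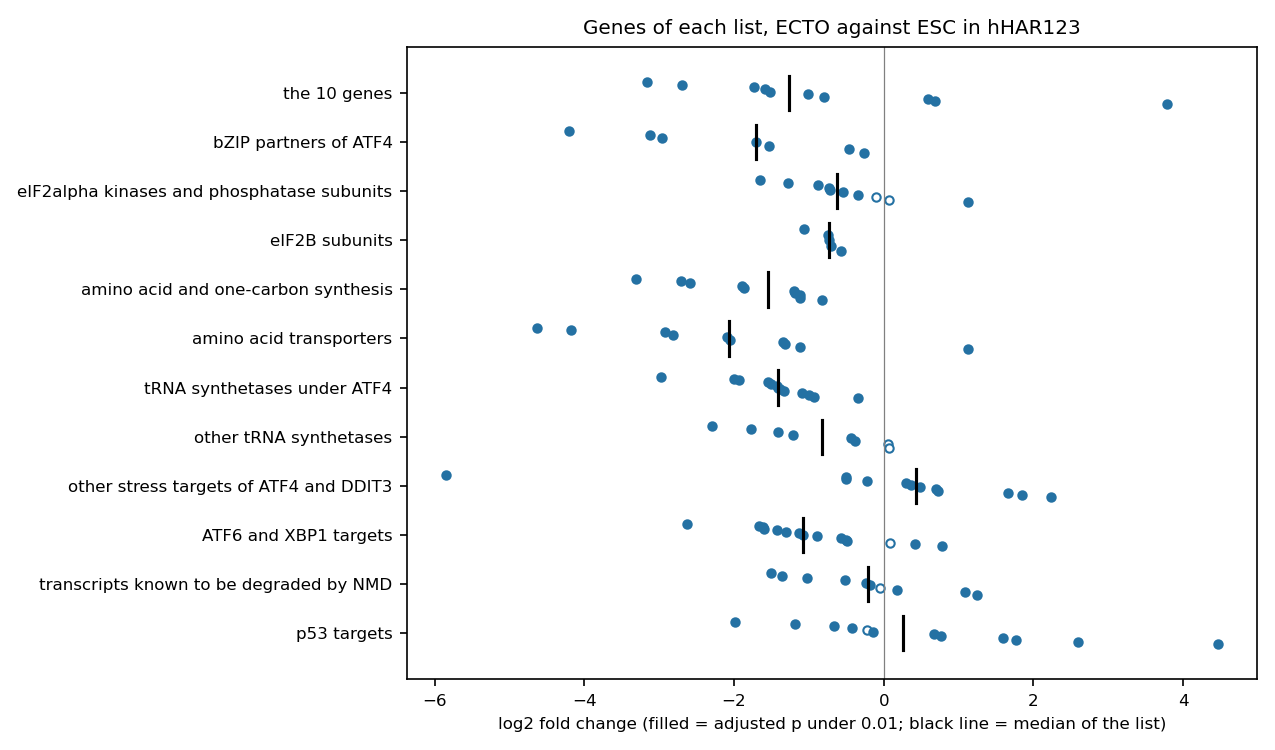
Log2 fold change from ESC to ECTO in hHAR123 for each gene of the 10 and of the other lists (rows), filled where the adjusted p was under 0.01, with a black line at the median of each list. The lists of synthesis, transport, tRNA charging and bZIP partners lie almost wholly below 0, and the other stress targets spread from -5.85 upwards on both sides of it.

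HAR123-KO was compared with hHAR123 at ECTO to see which of the genes differed once HAR123 was absent in differentiating cells. Of the 10, 4 were higher and 1 lower, with a median of 0.15 against 0.00 over all 21362 genes tested. As 44.1% of all genes were called in this comparison (24.2% higher and 19.9% lower), a count of 5 of 10 is near the background. Library totals moved the share of calls that were higher from 54.8% to 46.4%. None of the 10 passed an absolute log2 fold change of 1, which 9.45% of genes did. These libraries are also the ones with the high neural crest and low neuroectoderm marker sums given above, and the part of those cells in the differences was not tested.

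*SESN2* differed most clearly. Its HAR123-KO ECTO libraries stood at 33.3, 32.0 and 33.5 CPM, all above the hHAR123 ECTO libraries at 20.2, 22.3 and 23.2 CPM. The difference was 0.61 ± 0.059 (1.53-fold, adjusted p = 9.84e-13). *DDIT4* was higher too, at 449, 440.0 and 439.5 CPM against 373, 389.5 and 385 CPM, a difference of 0.23 ± 0.028 (1.18-fold, adjusted p = 7.66e-10). *ATF3* stood at 25.2, 25.0 and 26.1 CPM against 20, 20.8 and 20.9 CPM (0.33 ± 0.061, adjusted p = 9.11e-06). For these 3 genes the groups did not overlap, and the calls held under every alternative run. The share of all genes without overlap was not computed in any comparison of genotypes, and 44.1% of all genes were called in this one.

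*TRIB3* and *CHAC1* moved in opposite directions, at low counts (50 to 93 per ECTO library). *TRIB3* stood at 2.92, 3.54 and 3.52 CPM in HAR123-KO ECTO and 2.82, 1.96 and 2.33 CPM in hHAR123, with no overlap but neighbouring ranges. The difference of 0.52 ± 0.163 (adjusted p = 0.00616) was not called by DESeq2 (adjusted p = 0.0945), with library totals (adjusted p = 0.0136), or without hHAR123 replicate 2 (0.39, adjusted p = 0.0577), hHAR123 replicate 3 (adjusted p = 0.0185), HAR123-KO replicate 2 (adjusted p = 0.0302) or HAR123-KO replicate 3 (adjusted p = 0.0305). *CHAC1* stood at 2.2, 1.96 and 2.61 CPM against 3.81, 3.36 and 3.34 CPM, lower in every HAR123-KO library. It was lower by 0.61 ± 0.16 on the log2 scale (log2 fold change -0.61, adjusted p = 0.00118), and DESeq2 (adjusted p = 0.0302) and the fit without HAR123-KO replicate 2 (-0.52, adjusted p = 0.0117) did not call it.

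*ATF4* itself stood at 133, 128 and 128 CPM in HAR123-KO ECTO, within the hHAR123 range or just below it. The difference was -0.02 ± 0.034 (adjusted p = 0.667), with a 95% interval from -0.09 to 0.05 on the log2 scale. *PSAT1* (-0.04, adjusted p = 0.383), *PHGDH* (0.08, adjusted p = 0.0423), *DDIT3* (0.21, adjusted p = 0.284) and *ASNS* (-0.23, adjusted p = 0.312) did not pass the threshold. The interval of *ASNS*, from -0.59 to 0.13, was wide at its counts.

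The wider lists gave the HAR123-KO difference at ECTO for the rest of the pathway. Over all genes 24.2% were called higher and 19.9% lower, and counts near these shares set no list apart. Of the 10 further synthesis enzymes 5 were higher and 0 lower (median 0.25, against 0.00 over all genes), with *CBS* at 0.64 ± 0.041, *PYCR1* at 0.62 ± 0.055, *SHMT2* at 0.42 ± 0.043 and *MTHFD2* at 0.42 ± 0.053, while *PSPH* was at -0.01 (adjusted p = 0.904). Of 10 transporters 5 were higher and 3 lower (median 0.33). *SLC7A11* had the largest difference of the named genes: 150.4 ± 5.57 CPM (SD, n = 3) in HAR123-KO ECTO against 20.7 ± 1.27 CPM in hHAR123 ECTO, a log2 difference of 2.89 ± 0.047 (adjusted p = 5.47e-45). *SLC1A5*, a glutamine carrier, was also higher (0.76 ± 0.04), and *SLC1A4* (-0.92 ± 0.098) and *SLC7A3* (-0.73 ± 0.057) were lower. Of 13 genes of tRNA charging under ATF4, 7 were higher and 0 lower (median 0.13), led by *TARS1* (0.91 ± 0.047) and *MARS1* (0.32 ± 0.038). Of the 8 other tRNA synthetases, 6 were higher and 1 lower (median 0.20), led by *VARS1* (0.89 ± 0.04) and *FARSA* (0.49 ± 0.049). *RARS1* was lower (-0.16 ± 0.044).

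The counts that follow stand against the same shares of all genes (24.2% higher and 19.9% lower). All 3 called eIF2B subunits of 5 were higher (median 0.33). Of the kinases, phosphatase subunits and cofactors, 2 of 10 were higher, *GCN1* (0.34 ± 0.034) and *EIF2AK4* (0.27 ± 0.038), and *PPP1R15B* was lower (-0.22 ± 0.045), while *PPP1R15A* was at -0.08 (adjusted p = 0.186). Of 6 bZIP partners tested, *JDP2* was lower (-0.68 ± 0.198) and the others were not called, among them *CEBPB* (-0.04, adjusted p = 0.816) and *CEBPG* (0.02, adjusted p = 0.791). The other stress targets ran against the further synthesis enzymes, with 8 of 12 lower and 1 higher (median -0.35). *GDF15* was at -1.44 ± 0.241 and *PMAIP1* at -1.18 ± 0.301, both with large SEs, and *VLDLR* was higher (0.23 ± 0.047). *GDF15* was scarce at ECTO in every genotype, by the levels given at the end. The synthesis enzymes among the 10 genes (*PSAT1*, *PHGDH* and *ASNS*) were not called. Of 15 ATF6 and XBP1 targets 6 were higher and 1 lower (median 0.05), with *SDF2L1* at 0.65 ± 0.129, *CRELD2* at 0.53 ± 0.083 and *DNAJB9* at -0.33 ± 0.084. Of 12 p53 targets 4 were higher and 2 lower (median 0.03, and -0.02 with library totals), with *FAS* at 1.25 ± 0.118, *ZMAT3* at 0.47 ± 0.063, *PHLDA3* at -0.59 ± 0.13 and *CDKN1A* at -0.29 ± 0.079.

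Of the 10 NMD substrates 3 were higher and 2 lower (median -0.00), near the shares of all genes called higher (24.2%) and lower (19.9%). *GADD45A* (0.25 ± 0.074), *SNHG15* (0.30 ± 0.078) and *TBL2* (0.26 ± 0.058) were higher. *GADD45B* (-0.99 ± 0.114) and *UPP1* (-0.67 ± 0.121) were lower. *GAS5* (-0.07, adjusted p = 0.0735), *SNHG1* (-0.03, adjusted p = 0.555), *SNHG5* (0.01, adjusted p = 0.916), *SNHG12* (0.00, adjusted p = 0.986) and *ZFAS1* (-0.00, adjusted p = 0.966) were not called.

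**Figure D4:**
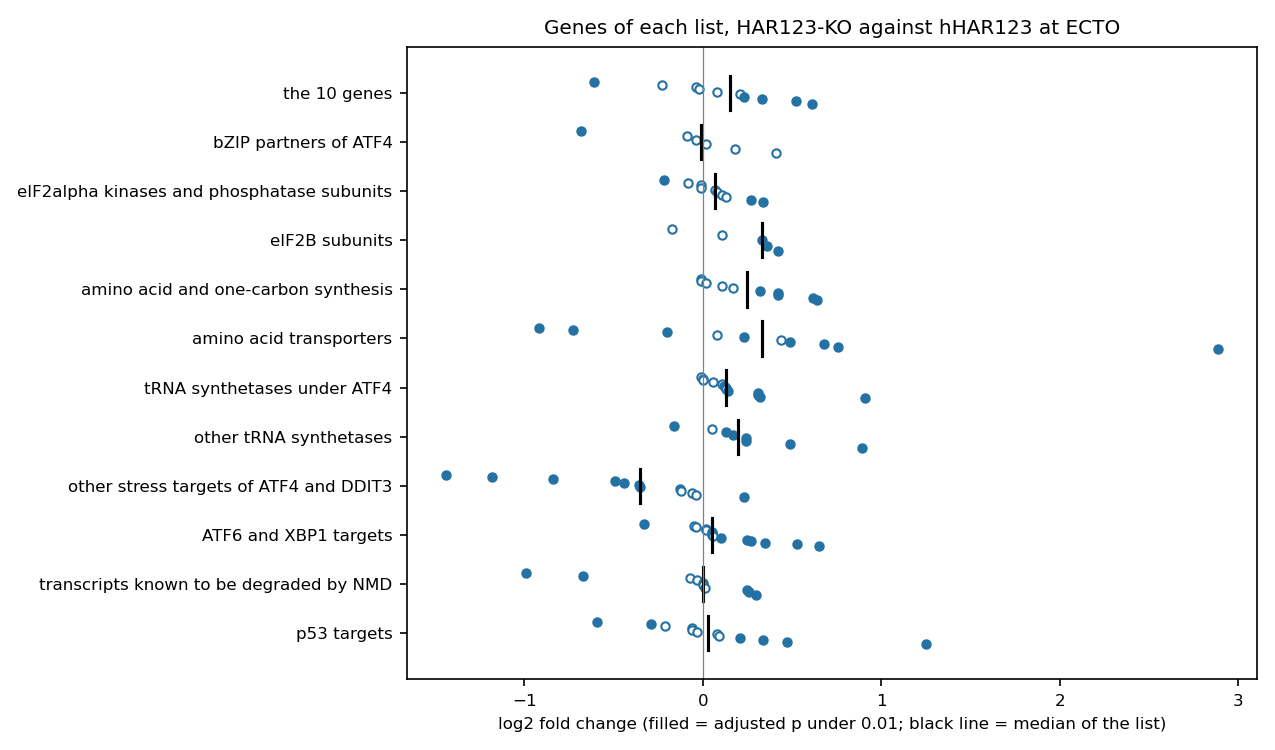
Log2 fold change of HAR123-KO against hHAR123 at ECTO for each gene of the 10 and of the other lists (rows), filled where the adjusted p was under 0.01, with a black line at the median of each list. *SLC7A11* stands alone at 2.89, the 10 genes stay between -0.61 and 0.61, and the other stress targets lie mostly below 0 (median -0.35).

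The orthologs were compared with hHAR123 at ECTO, using the same 3 hHAR123 libraries as HAR123-KO, so these comparisons are not independent. In cHAR123 2 of the 10 were called, where 9.89% of genes were called (5.90% higher and 3.99% lower). *ATF3* was higher at 25.8, 24.9 and 24.4 CPM, above all hHAR123 libraries (0.28 ± 0.06, adjusted p = 0.000815), but was not called without cHAR123 replicate 1 (0.26, adjusted p = 0.011). *DDIT4* was lower at 343, 339 and 346 CPM, below all hHAR123 libraries (-0.16 ± 0.027, adjusted p = 1.63e-05). In mHAR123 1 of the 10 was called, where 14.0% of genes were called (8.80% higher and 5.21% lower, a split that library totals moved from 62.8% to 41.1% of calls higher). That gene was *PHGDH*, at 148, 150.4 and 162 CPM against 135, 145 and 138 CPM (0.14 ± 0.039, adjusted p = 0.00844). It was not called by DESeq2 (adjusted p = 0.0124), with library totals (0.09, adjusted p = 0.0669), or without hHAR123 replicate 1 (0.11), hHAR123 replicate 3 (0.13), mHAR123 replicate 2 (0.15) or mHAR123 replicate 3 (0.09, adjusted p = 0.126).

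Set against HAR123-KO at ECTO, cHAR123 differed in 4 of the 10, where 39.0% of genes were called, and mHAR123 in 3, where 36.5% were. *SESN2* was lower than in HAR123-KO in both, at 22.3, 23.1 and 24.3 CPM in cHAR123 (-0.51, adjusted p = 1.57e-12) and 23.5, 22.7 and 25.1 CPM in mHAR123 (-0.47, adjusted p = 6.02e-10). *DDIT4* was lower in both as well (-0.37, adjusted p = 2.45e-24, and -0.18, adjusted p = 7.14e-08). *CHAC1* was higher in cHAR123 (0.54, adjusted p = 0.00371) and *TRIB3* lower (-0.49, adjusted p = 0.00689), and DESeq2 called neither (adjusted p = 0.0237 and 0.0384). *CHAC1* was not called without HAR123-KO replicate 1 or 2 or cHAR123 replicate 2 or 3 (0.44 to 0.52), nor *TRIB3* in any fit that left out 1 library except that without HAR123-KO replicate 1 (-0.52 to -0.45). *ATF3* was lower in mHAR123 than in HAR123-KO (-0.27, adjusted p = 0.000182). Between mHAR123 and cHAR123, where 4.20% of genes were called, *ATF3* (-0.25, adjusted p = 0.00391, and 0.0457 by DESeq2) and *DDIT4* (0.19, adjusted p = 1.57e-07) differed, and *ATF3* was not called without replicate 1 or 2 of cHAR123 or replicate 2 or 3 of mHAR123 (-0.26 to -0.21). If the labels of both ECTO genotypes were exchanged, the signs of this last comparison would be too. The ECTO results of cHAR123 and mHAR123 against hHAR123 and HAR123-KO would trade places. Their stage changes and interactions, which join ECTO and ESC libraries, would also change.

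In ESC, HAR123-KO differed from hHAR123 in 2 of the 10, both lower, where 12.4% of genes were called (7.06% higher and 5.29% lower, with 57.1% of calls higher and 67.4% with library totals). They were *PHGDH* and *PSAT1*, while *PSPH*, the last enzyme of serine synthesis, was at -0.12 (adjusted p = 0.0701). *PHGDH* stood at 409, 405 and 399 CPM in HAR123-KO against 464, 464 and 458 CPM in hHAR123, with no overlap (-0.17 ± 0.024, adjusted p = 5.97e-07). *PSAT1* stood at 224, 231 and 221 CPM against 254, 249.7 and 255 CPM, again with no overlap (-0.15 ± 0.027, adjusted p = 6.66e-05). How many of all genes had no overlap here was not computed. *ATF4* was at -0.02 ± 0.024 (adjusted p = 0.617).

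In cHAR123 ESC *PSAT1* and *PHGDH* were again the genes called, where 16.3% of genes were called (7.72% higher and 8.60% lower, with 47.3% of calls higher and 65.3% with library totals). *PSAT1* stood at 222, 214 and 211 CPM, below every hHAR123 library (-0.21 ± 0.029, adjusted p = 5.8e-07). *PHGDH* stood at 418, 429.5 and 437 CPM (-0.09 ± 0.025, adjusted p = 0.00905). Its call was lost in all 6 fits that left out 1 library (-0.10 to -0.07, adjusted p from 0.0139 to 0.0509) and with library totals (-0.06, adjusted p = 0.0989).

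In mHAR123 ESC 5 of the 10 were called, 4 higher and 1 lower (median 0.12), where 19.2% of genes were called (9.02% higher and 10.2% lower, with 47.0% of calls higher and 67.3% with library totals). *DDIT4* stood at 33.5, 34 and 32.2 CPM against 29.2, 26.8 and 27 CPM in hHAR123 (0.29 ± 0.051, adjusted p = 1.63e-05), and *CHAC1* at 35.8, 35.2 and 35.5 CPM against 31.8, 31.6 and 30.7 CPM (0.20 ± 0.047, adjusted p = 0.00107). None of the 5 called genes overlapped between the groups, and the share of all genes without overlap was not computed. *TRIB3* stood at 17.6, 18.4 and 18 CPM (0.26 ± 0.064, adjusted p = 0.00168) and *SESN2* at 45.8, 42.5 and 42.3 CPM (0.21 ± 0.051, adjusted p = 0.00157). DESeq2 called none of *CHAC1*, *TRIB3* and *SESN2* (adjusted p from 0.0182 to 0.0316). *TRIB3* was not called without hHAR123 replicate 3 or mHAR123 replicate 2 (0.24 in both), nor *SESN2* without hHAR123 replicate 3 (0.13, adjusted p = 0.0509) or mHAR123 replicate 1 (0.17, adjusted p = 0.0181). *PSAT1* was lower (-0.08 ± 0.026, adjusted p = 0.00989), and neither the fits that left out 1 library nor library totals (-0.04, adjusted p = 0.221) called it.

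The edited ESC lines were also compared with each other. cHAR123 differed from HAR123-KO in 1 gene, where 8.09% of genes were called: *DDIT4*, at 28.9, 28.8 and 28.2 CPM against 25.5, 24.2 and 24.3 CPM (0.23, adjusted p = 0.00373), which DESeq2 did not call (adjusted p = 0.0331), nor any fit that left out 1 library except that without HAR123-KO replicate 1 (0.21 to 0.24). mHAR123 differed from HAR123-KO in 3 genes, where 6.91% were called: *DDIT4* (0.44, adjusted p = 3.31e-07), *PHGDH* (0.16, adjusted p = 9.71e-05) and *SESN2* (0.20, adjusted p = 0.00344, and adjusted p = 0.0228 by DESeq2). *SESN2* was not called without HAR123-KO replicate 2 (0.19) or 3 (0.18) or mHAR123 replicate 1 (0.16). None of the 10 was called between mHAR123 and cHAR123 by edgeR as described above or by DESeq2, where edgeR called 0.783% of genes, and edgeR called 1 with no filter, 1 with all libraries in 1 fit and 1 without cHAR123 replicate 1. Of the 10, 4 had an unadjusted p under 0.05 in edgeR, with *DDIT4* (0.21, adjusted p = 0.0163) and *PSAT1* (0.12, adjusted p = 0.0169) nearest to the threshold.

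**Figure D5:**
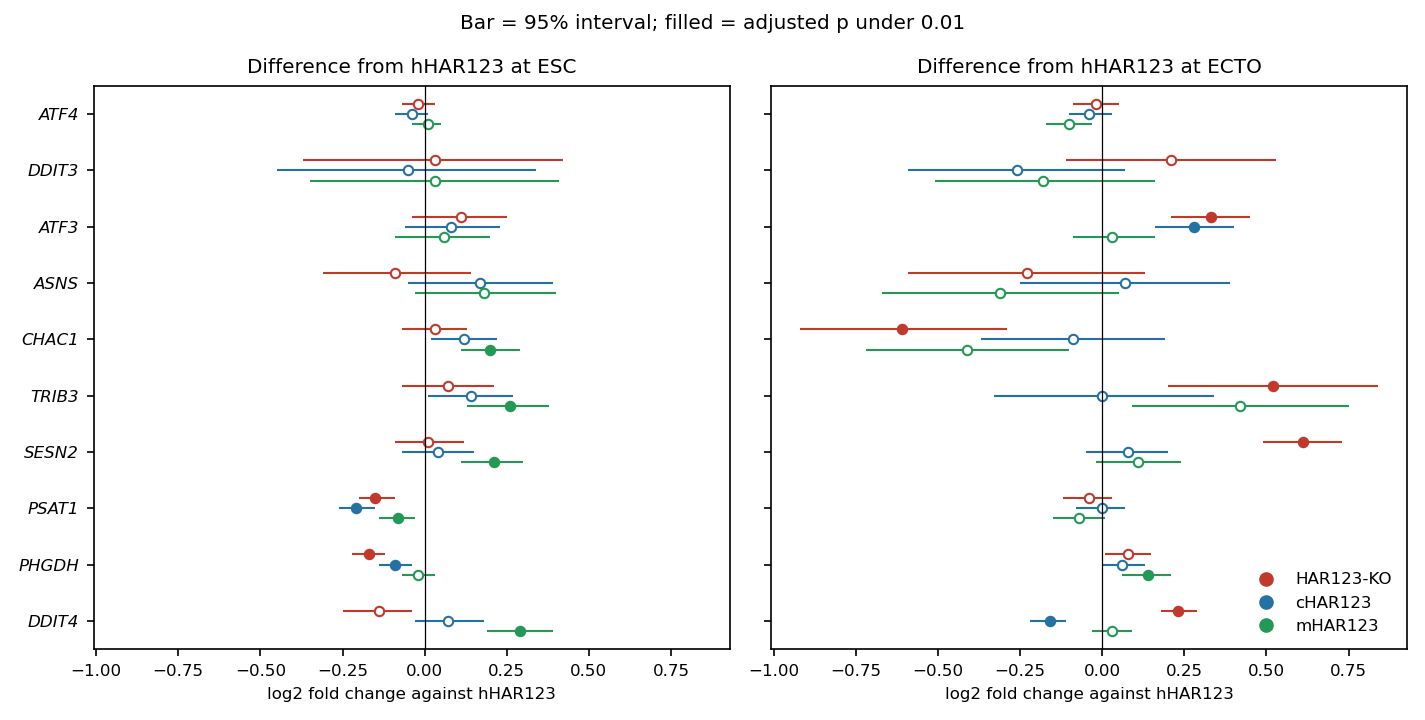
Log2 fold change of each edited genotype against hHAR123 for the 10 genes (rows) at ESC (left) and ECTO (right), with bars for the 95% interval and filled points for an adjusted p under 0.01. The differences stay within -0.61 and 0.61, *ATF4* lies near 0 at both stages, and HAR123-KO stands apart at ECTO for *SESN2* (0.61).

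The last question was whether an edited line changed differently from hHAR123 during differentiation, which a stage by genotype term over 12 libraries addressed. In HAR123-KO 4 of the 10 passed, where 32.5% of genes did, in cHAR123 3 (8.71% of genes) and in mHAR123 3 (12.8% of genes). *ATF4* was at -0.00 ± 0.041 in HAR123-KO (95% interval -0.08 to 0.08), at 0.01 ± 0.04 in cHAR123 and at -0.08 ± 0.041 in mHAR123, none of them called. The smallest adjusted p was that of *SESN2* in HAR123-KO, where the decrease seen in hHAR123 was smaller by 0.59 ± 0.084 on the log2 scale (adjusted p = 5.01e-08).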

How the data were processed

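Total RNA was rRNA-depleted and made into directional paired-end libraries; the authors aligned reads to GRCh38 with STAR 2.5.2b and assigned them to Ensembl exons with featureCounts. The deposited table holds the resulting raw counts, not normalized. Reads that map to several places or to overlapping genes may be missing from them. The row of *ANK2*, split over 3 lines, was left out, and 15709 of the 61551 other genes had no count.

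The 10 genes and all lists were chosen with earlier results of these data known. Genes named from the lists were those with the largest HAR123-KO difference at ECTO (up to 2 per direction), all NMD substrates, and *PPP1R15A*, *CEBPB*, *CEBPG*, *GDF15*, *SLC7A11*, *MTHFD2*, *PSPH* and *SHMT2*. *AARS1* and *IARS1* are shown for their sequence only, chosen after the matches were seen, and *CDKN1A* and *PHLDA3* fall under the first rule.

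Counts of each pair of groups were fitted alone in R 4.3.3 with edgeR 4.0.16 (filterByExpr, TMM, quasi-likelihood F test, Benjamini-Hochberg adjustment over all genes tested), with a threshold of 0.01 on the adjusted p. The SE is the absolute log2 fold change over the square root of F, and 95% intervals assume a normal distribution. Stage interactions used 12 libraries. Tables were made with Python 3.11.15. Replicates differed by more than sampling noise (chi-square per degree of freedom from 1.41 to 5.53). The fits were tested on simulated data with the same dispersion for all genes and changes larger than any genotype difference of the genes described here. That run does not bear on calls at such small differences. Copies of *ATF4* (4 pseudogenes, 2977 counts against 165776), *ASNS* (4, 416 against 2537) and *PSAT1* (4, 63 against 103254) may take reads. Alternatives were DESeq2 1.42.0, its size factors in edgeR, no filter, all libraries in 1 fit, the replicate block, a threshold of 0.05, leaving out each library, and library totals (chosen after seeing the data).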

Additional observations from a re-analysis of the deposited data

Results flagged for a closer look

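The change from ESC to ECTO differed between an edited line and hHAR123 (edgeR interaction over 12 libraries, adjusted p under 0.01 over all genes) for 10 pairs of gene and line. The 3 tests share the 6 hHAR123 libraries. In HAR123-KO the interaction was -0.64 ± 0.152 for *CHAC1* (adjusted p = 0.000503), which fell by 3.78 there and by 3.16 in hHAR123. It was 0.59 ± 0.084 for *SESN2* (adjusted p = 5.01e-08), 0.37 ± 0.055 for *DDIT4* (adjusted p = 1.44e-07) and 0.25 ± 0.042 for *PHGDH* (adjusted p = 2.43e-06), each higher in HAR123-KO ECTO than the sum of the stage change in hHAR123 and the ESC difference gives.

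In cHAR123 the interaction was 0.21 ± 0.046 for *PSAT1* (adjusted p = 0.000804), 0.16 ± 0.042 for *PHGDH* (adjusted p = 0.00569) and -0.23 ± 0.054 for *DDIT4* (adjusted p = 0.0021). With library totals *PSAT1* (0.16, adjusted p = 0.0216) and *PHGDH* (0.10, adjusted p = 0.0813) were not called. *PHGDH* was also not called without hHAR123 ECTO replicate 1 (0.14) or 3 (0.16) or cHAR123 ECTO replicate 1 (0.15) or 2 (0.16), and *DDIT4* was not called without hHAR123 ESC replicate 2 (-0.19) or 3 (-0.20).

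In mHAR123 it was -0.58 ± 0.148 for *CHAC1* (adjusted p = 0.00304), 0.18 ± 0.046 for *PHGDH* (adjusted p = 0.00322) and -0.24 ± 0.055 for *DDIT4* (adjusted p = 0.000958). *CHAC1* was not called without hHAR123 ECTO replicate 1 (-0.52) or mHAR123 ECTO replicate 3 (-0.43). *PHGDH* was not called with library totals (0.07, adjusted p = 0.249), nor without hHAR123 ESC replicate 2 (0.18), mHAR123 ESC replicate 2 (0.18) or 3 (0.16) or mHAR123 ECTO replicate 3 (0.14). The rise of *DDIT4* was thus larger than in hHAR123 in HAR123-KO and smaller in cHAR123 and mHAR123. In mHAR123 its mean was not below that of hHAR123, at 33.2 against 27.6 CPM in ESC and 391.2 against 382.5 CPM in ECTO. The cHAR123 and mHAR123 labels at ECTO are in doubt as described above.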

How the results depend on the processing

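The number of the 10 genes called in each comparison was recomputed under every alternative. It moved by over 1.5 times with DESeq2 from 5 to 2 in mHAR123 against hHAR123 at ESC, from 1 to 0 in cHAR123 against HAR123-KO at ESC, from 5 to 3 in HAR123-KO against hHAR123 at ECTO, from 1 to 0 in mHAR123 against hHAR123 at ECTO, from 4 to 2 in cHAR123 against HAR123-KO at ECTO and from 2 to 1 in mHAR123 against cHAR123 at ECTO. At an adjusted p under 0.05 it was 2 in cHAR123 against HAR123-KO at ESC, 2 in mHAR123 against cHAR123 at ESC (0 at 0.01) and 2 in mHAR123 against hHAR123 at ECTO. In mHAR123 against cHAR123 at ESC it was 1 with no filter on low counts and 1 with all libraries in 1 fit. Scaling by library totals, chosen after seeing the data, gave 1 in place of 2 in cHAR123 against hHAR123 at ESC and 1 in place of 3 in the cHAR123 interaction, and turned *SESN2*, ECTO against ESC in HAR123-KO, from -0.18 to 0.02.

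Leaving out each library in turn gave, in ESC, 1 to 1 in cHAR123 against hHAR123, 2 to 4 in mHAR123 against hHAR123 (2 without hHAR123 replicate 3), 0 to 1 in cHAR123 against HAR123-KO and 0 to 1 in mHAR123 against cHAR123 (1 without cHAR123 replicate 1). At ECTO it gave 3 to 5 in HAR123-KO against hHAR123 (3 without HAR123-KO replicate 2), 1 to 2 in cHAR123 against hHAR123, 0 to 1 in mHAR123 against hHAR123, 2 to 3 in cHAR123 against HAR123-KO and 1 to 2 in mHAR123 against cHAR123. The mHAR123 interaction had 1 to 3 (1 without mHAR123 ECTO replicate 3). The cause was not tested, apart from the fewer libraries in these fits.

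Replicate numbers did not pair the samples (correlations of same-numbered libraries from -0.15 to 0.2 over 16 pairs of groups, none with every pair over 0.1). A fit with the replicate block gave 1 in place of 2 genes in cHAR123 against hHAR123 at ESC, where *PHGDH* was lost (-0.09, adjusted p = 0.0438), and moved no other count by over 1.5 times. Of 2648 values of single genes under an alternative, 2541 kept their side of the threshold (86 uncalled values among them changed sign), 84 were weaker, 22 stronger and 1 reversed. Low counts limit *DDIT3*, *ASNS*, *CHAC1* and *TRIB3* at ECTO.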

Other observations

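p53 targets were listed because *SESN2* and *GDF15* are known to respond to p53 as well as to ATF4. In ESC, 6 of 12 p53 targets were higher and 0 lower in HAR123-KO (median 0.24, against 0.00 over all genes), 2 higher and 0 lower in cHAR123 (median 0.18, against 0.01) and 9 higher and 0 lower in mHAR123 (median 0.31, against 0.01), with all 3 compared with the same hHAR123 libraries. Over all genes 7.06%, 7.72% and 9.02% were called higher in these comparisons, and library totals moved calls over all genes towards higher in each, as given above, while the p53 targets called higher remained 6, 2 and 9 in number. *CDKN1A*, a cell cycle inhibitor, was higher by 0.82 ± 0.106 in HAR123-KO, 0.71 ± 0.109 in cHAR123 and 1.23 ± 0.1 in mHAR123. *PHLDA3* was higher by 0.72 ± 0.068, 0.64 ± 0.069 and 1.04 ± 0.062. *GDF15* stood at 1.23 ± 0.0842 CPM in hHAR123 ESC, 2.14 ± 0.299 CPM in HAR123-KO, 1.73 ± 0.319 CPM in cHAR123 (not called, adjusted p = 0.0677) and 3.20 ± 0.0879 CPM in mHAR123 (SD, n = 3). At ECTO it was highest in hHAR123, with 2.03 ± 0.138 CPM, against 0.738 ± 0.235 CPM in HAR123-KO, 1.30 ± 0.199 CPM in cHAR123 (not called, adjusted p = 0.0205) and 0.995 ± 0.393 CPM in mHAR123.

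In ESC, the genes of tRNA charging under ATF4 had 0 of 13 higher and 6 lower in cHAR123 (median -0.09) and 1 higher and 6 lower in mHAR123 (median -0.07). Over all genes 7.72% were called higher and 8.60% lower in cHAR123, and 9.02% and 10.2% in mHAR123. In HAR123-KO the median was -0.05. *TARS1* was lower by 0.17 on the log2 scale in both cHAR123 (-0.17 ± 0.028) and mHAR123 (-0.17 ± 0.025).

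The genes whose log2 CPM followed *ATF4* most closely over the 24 libraries, of 12819 compared, were *SKIL*, *SLC39A14*, ENSG00000289479, *ALDH1B1* and ENSG00000254277, each with a Pearson correlation of 0.998. For *ASNS* they were *ESCO1* (0.936), *DANT1* (0.935), *MIR124-1HG* (0.934), *FLT4* (0.934) and *ANKRD27* (0.932). All libraries of a stage share the difference between the stages. Within the 12 ESC libraries the correlations with *ATF4* ranged from -0.49 (*ALDH1B1*) to 0.44 (ENSG00000289479), and within the 12 ECTO libraries from 0.42 to 0.82 (*SKIL*). Those with *ASNS* ranged from 0.56 to 0.81 within ESC and from 0.54 to 0.79 within ECTO.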
